A study of Mus musculus with 35 samples.

Results

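Antigen presentation by major histocompatibility complex (MHC) class I molecules was followed in mouse lung through 10 genes: H2-K1, H2-D1, B2m, Tap1, Tap2, Tapbp, Psmb8, Psmb9, Psmb10 and Nlrc5. The genes were taken by name, as every array probe whose RefSeq record maps to one of the 10 symbols, which gave 12 probes of the 55681 on the array. H2-K1 and Nlrc5 had 2 probes each and the brighter one stood for the gene. All 10 genes passed the filter on dim probes and were tested among 25533 features, of which 15620 were genes with a symbol. Female C57BL/6 mice, 5 to 7 weeks old, had received 1 intratracheal instillation of a nanomaterial, known only by its code NRCWE-043, NRCWE-044 or NRCWE-045, at 18 or 54 µg/animal in 40 µl, and lung was taken 24 h later, with RNA extracted from random sections of the tissue. Control arrays are labelled 0 µg, and the labels do not say what those mice received. Each of the 7 groups had 5 arrays, on which Cy5-labelled lung RNA was measured against one Cy3-labelled universal reference RNA made from 11 mouse cell lines. A value below is the log2 ratio of lung RNA to that reference, and a difference of 1 is a doubling. It compares arrays for 1 gene and not 1 gene with another. The labels do not say that the arrays of a group came from separate mice, so p-values measure the spread between these arrays, which may be technical. In whole-lung RNA, fewer cells of a type and less RNA per cell cannot be told apart.

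Nearly all nucleated cells display peptides of their own proteins on MHC class I molecules, where CD8+ T cells and natural killer cells read them. The proteasome degrades proteins to peptides, and interferon replaces its catalytic subunits by the inducible Psmb8, Psmb9 and Psmb10, which form the immunoproteasome. The TAP transporter carries the peptides into the endoplasmic reticulum, where tapasin and chaperones load them onto a heavy chain paired with beta-2 microglobulin. NLRC5 is a transactivator that binds to the promoters of many of these genes, and the whole set is known as interferon-inducible.

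Promoter sequence was read from RefSeq for 8 of the 10 genes (build GRCm38.p6), as the 250 bases before the annotated start. The stretches of H2-K1, H2-D1 and B2m are shown because these genes varied together across arrays. H2-K1 and H2-D1 encode heavy chains of separate class I molecules, and B2m encodes the light chain that each pairs with. The stretch between Psmb9 and Tap1 is shown because the starts of these genes lie head to head and share it. Capitals mark, on either strand, GAAANNGAAA (the core of an interferon-stimulated response element), GAANNGAAA (a looser spacing of the same repeats), the kappa B consensus, TGACG (part of the X2 box bound with NLRC5) and ATTGG (the Y box, CCAAT on the other strand). The printed strand is the gene's own, except that the shared stretch is written on the plus strand, towards Tap1. For H2-K1, the start in the promoter table lies inside the gene's widest annotated extent. H2-K1 covers chr17:34000348-34000527 (minus strand), H2-D1 chr17:35262914-35263093 (plus), B2m chr2:122147507-122147686 (plus), and the shared stretch chr17:34187331-34187555.
H2-K1: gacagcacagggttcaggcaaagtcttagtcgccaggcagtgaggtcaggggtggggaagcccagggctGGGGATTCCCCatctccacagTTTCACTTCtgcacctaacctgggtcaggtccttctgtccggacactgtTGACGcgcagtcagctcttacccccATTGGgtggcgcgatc
H2-D1: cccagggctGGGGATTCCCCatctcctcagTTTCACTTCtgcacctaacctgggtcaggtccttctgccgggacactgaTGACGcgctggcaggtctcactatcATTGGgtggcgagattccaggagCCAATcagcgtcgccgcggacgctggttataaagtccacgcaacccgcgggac
B2m: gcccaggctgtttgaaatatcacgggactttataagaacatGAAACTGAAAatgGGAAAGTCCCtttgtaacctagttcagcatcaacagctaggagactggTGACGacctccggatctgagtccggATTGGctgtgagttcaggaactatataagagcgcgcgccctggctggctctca
Psmb9 to Tap1: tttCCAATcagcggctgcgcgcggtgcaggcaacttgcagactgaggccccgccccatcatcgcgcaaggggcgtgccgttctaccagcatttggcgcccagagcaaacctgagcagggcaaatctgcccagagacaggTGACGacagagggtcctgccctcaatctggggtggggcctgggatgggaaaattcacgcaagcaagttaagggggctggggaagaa
The response element core GAAANNGAAA occurred in the 250 bases of B2m and of none of the other 7 genes, and it occurs in 3.04% of 27025 mouse promoters of that length. The looser GAANNGAAA was found in H2-K1 and H2-D1, and in 6.34% of all promoters. A kappa B match was found in H2-K1, H2-D1 and B2m, against 3.75% of all promoters. TGACG was found in H2-K1, H2-D1, B2m and the 225 bases between Psmb9 and Tap1, against 17.9% of all, and ATTGG in those and in Tapbp, against 34.5%. Psmb8 held 1 match of TTCNNNGAA, the interferon-gamma activated site, which 7.18% of promoters hold. Psmb10 held no match to any of these letters in its window. A match is a description of letters and not a binding site.

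Of the members, 7 lie on chromosome 17 (GRCm38.p6), in and around the MHC. Psmb9 (34182030 to 34187330), Tap1 (34187556 to 34197225), Psmb8 (34198195 to 34201454) and Tap2 (34204479 to 34216321) follow each other there. Tapbp (33919478 to 33929290) and H2-K1 (33996012 to 34000619) lie before them and H2-D1 (35263094 to 35267497) after them. B2m lies on chromosome 2 (122147687 to 122153082), and Nlrc5 (94434335 to 94527272) and Psmb10 (105935728 to 105938392) on chromosome 8. Every probe used for a member was well above background in Cy5 on 35 of 35 arrays, and none was saturated. Class I heavy chain genes resemble each other closely, and how far a probe for H2-K1, H2-D1 or H2-Q4 also detects another heavy chain was not tested.

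Across the 35 arrays, 42.8% to 69.3% of probes were well above background in Cy5, and the median Cy5 signal ran from 85.5 to 345.5 intensity units. Of 15 epithelial and endothelial markers, 14 were above background on all 35 arrays and Cdh5 on 34. The arrays were spread over 7 slides scanned on 6 days, with the controls on 4 of the slides. A few arrays stood apart in these genes. Replicate 27 of NRCWE-045 at 18 µg had the highest value of all 35 arrays in H2-K1, H2-D1, B2m, Psmb9 and Nlrc5. Replicates 5 and 10 of NRCWE-043 and 6 and 11 of NRCWE-044, all at 18 µg, had the lowest 4 values of Psmb9. These 4 arrays were on slides 1 and 2, both scanned on day 1, and the other arrays of their groups were on slides scanned later. The part of slide or scan day in their low values was not tested. Control replicate 7 had Tap2 at 0.70, against -0.16 to 0.11 on the other 4 controls, and the class I gene H2-Q4 at 0.64, against 1.90 to 3.52. Both of its values lie inside the range of the 10 NRCWE-043 arrays, so the Tap2 and H2-Q4 changes with NRCWE-043 are given with and without it. H2-D1 also stood low on it, at 2.53 against 2.80 to 3.08 on the other 4 controls. The 10 NRCWE-043 arrays had H2-D1 at 2.35 to 3.07.

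**Figure D1:**
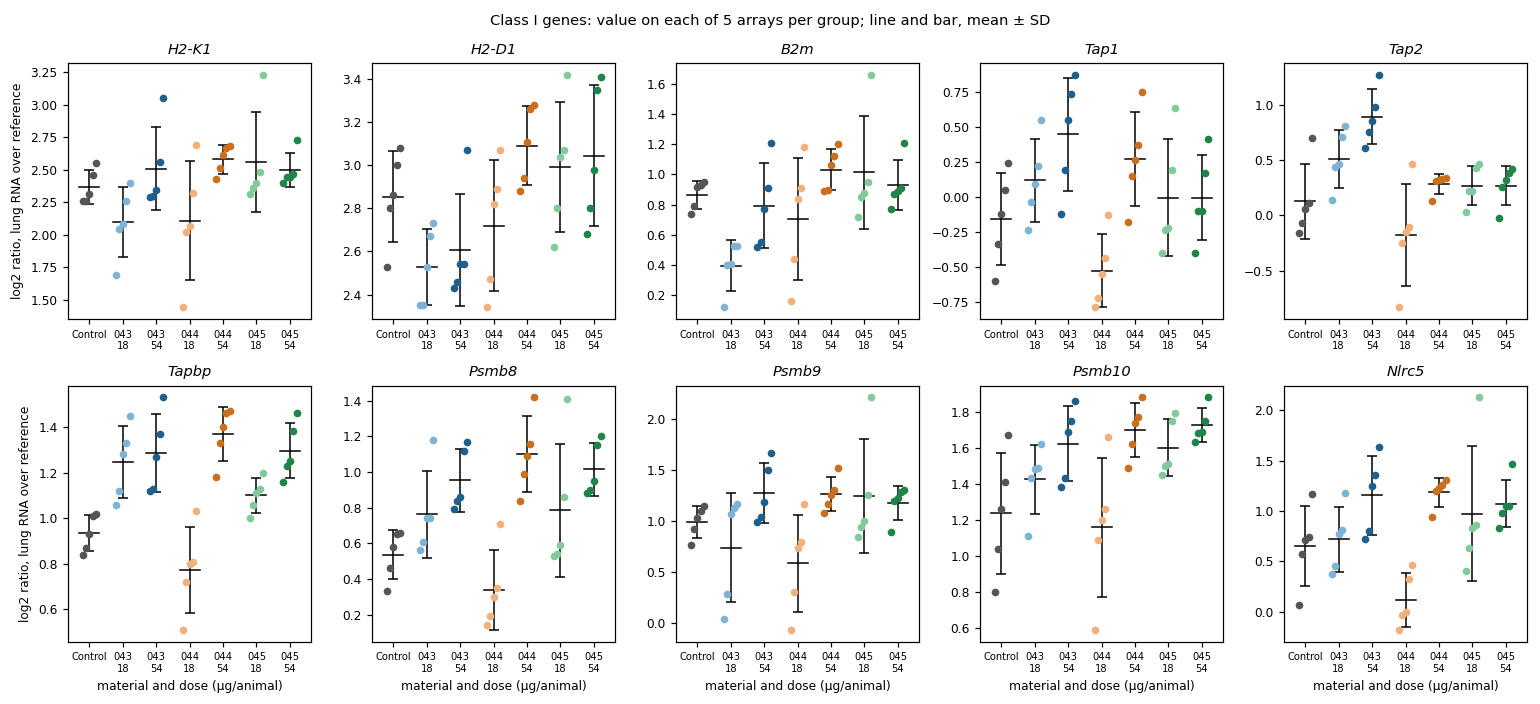
Log2 ratio of lung RNA to reference RNA (vertical axis) for each of the 10 class I genes, by material and dose in µg/animal (horizontal axis); points are the 5 arrays of a group, lines and bars the mean ± SD. The NRCWE-044 arrays at 18 µg sit lowest in Tapbp, Psmb8 and Nlrc5, with group means of 0.77, 0.34 and 0.12, and those at 54 µg at 1.37, 1.10 and 1.19.

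Against control, few of the 10 genes rose and none fell in the fit without slide as a term (limma, Benjamini-Hochberg adjusted p under 0.05 over all features). With NRCWE-043, 1 of 10 rose at 18 µg and 2 at 54 µg, where 4.25% and 10.3% of all features were called in either direction and 1.38% and 5.4% as higher. With NRCWE-044, 0 were called at 18 µg and 2 rose at 54 µg, with 0% and 6% of all features called (3.94% as higher at 54 µg). With NRCWE-045, 0 were called at either dose, with 0% and 0.325% of all features called. The median change of the 10 genes was 0.13, -0.23 and 0.18 at 18 µg for NRCWE-043, NRCWE-044 and NRCWE-045, and 0.37, 0.35 and 0.19 at 54 µg, while the median over all features stayed between -0.025 and 0.011. The estimates were positive for 10 of 10 genes with NRCWE-044 at 54 µg and with NRCWE-045 at both doses, and for 0 of 10 with NRCWE-044 at 18 µg. These 6 comparisons share the 5 control arrays. With slide as a block, 1 chain gene was called lower with NRCWE-043 at 18 µg: H2-D1 with a fixed block (-0.38, adjusted p = 0.045) and B2m with a random block (-0.49, adjusted p = 0.036). Tapbp was then also called higher with NRCWE-045 at 54 µg (0.38, adjusted p = 0.034 with the fixed block). At an unadjusted p under 0.05, limma gave 1 of the 10 genes for NRCWE-044 at 18 µg, 1 for NRCWE-045 at 18 µg and 3 for NRCWE-045 at 54 µg, with 2769, 710 and 2397 of all features.

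**Figure D2:**
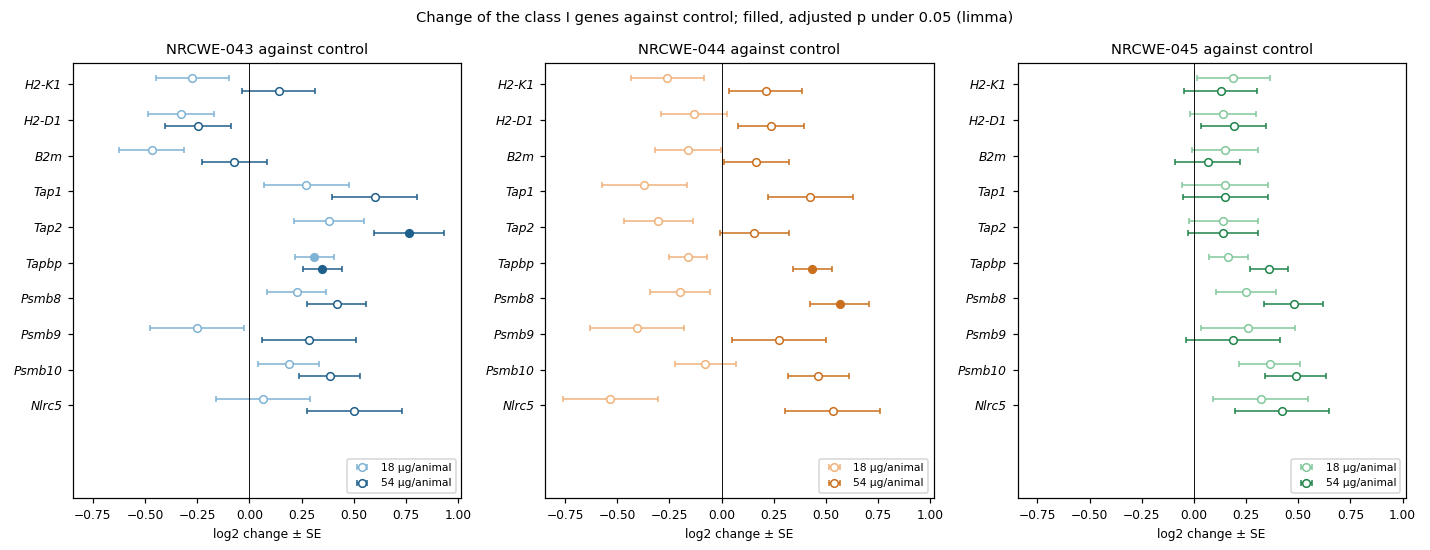
Log2 change against control ± SE (horizontal axis) for each class I gene (vertical axis), with the 3 materials in panels and both doses in each; filled points have an adjusted p under 0.05 in limma. Filled points are Tapbp for NRCWE-043 at both doses and NRCWE-044 at 54 µg, Tap2 for NRCWE-043 at 54 µg and Psmb8 for NRCWE-044 at 54 µg.

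The chains of the class I molecule itself passed the test in no comparison with control unless slide was a block, as given above, or arrays were scaled to each other (B2m with NRCWE-043 at 18 µg, -0.48, adjusted p = 0.046). For B2m, which encodes the light chain beta-2 microglobulin, the controls read 0.95, 0.79, 0.92, 0.74 and 0.93. The NRCWE-043 arrays at 18 µg read 0.12, 0.41, 0.53, 0.53 and 0.40, all below every control, as in 1.61% of all features. The change was -0.47 ± 0.16 (SE; limma adjusted p = 0.085), the lowest among the members in any comparison with control except Nlrc5 with NRCWE-044 at 18 µg. At 54 µg of NRCWE-043, B2m read 0.91, 0.77, 0.52, 0.55 and 1.21, a change of -0.07 ± 0.16. The classical heavy chain gene H2-K1 changed by -0.27 ± 0.17 and 0.14 ± 0.17 at the 2 doses of NRCWE-043, and H2-D1, the other classical heavy chain, by -0.33 ± 0.16 and -0.25 ± 0.16. Both H2-D1 changes include control replicate 7, the lowest control in this gene. With NRCWE-044 the 3 chain genes lay between -0.26 and -0.13 at 18 µg and between 0.17 and 0.24 at 54 µg. With NRCWE-045 they lay between 0.07 and 0.19 at both doses. The second H2-K1 probe gave -0.03 ± 0.15 and 0.16 ± 0.15 for NRCWE-043, and 0.41 ± 0.15 for NRCWE-044 at 54 µg (adjusted p = 0.11 over probes).

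Tapbp encodes tapasin, which bridges the transporter and the empty class I molecule, and it was called in 3 of the 6 comparisons with control, more than any other member. The controls read 0.87, 1.01, 0.84, 1.02 and 0.93. NRCWE-043 arrays read 1.33, 1.45, 1.06, 1.28 and 1.12 at 18 µg and 1.37, 1.27, 1.13, 1.12 and 1.53 at 54 µg, so that neither group overlapped the controls, as in 1.36% of all features at the lower dose. The rise was 0.31 ± 0.09 at 18 µg (adjusted p = 0.047) and 0.35 ± 0.09 at 54 µg (adjusted p = 0.012), or 1.24-fold and 1.27-fold. NRCWE-044 arrays at 54 µg read 1.33, 1.18, 1.40, 1.46 and 1.47, a rise of 0.43 ± 0.09 (adjusted p = 0.0034). NRCWE-045 arrays at 54 µg read 1.46, 1.23, 1.16, 1.38 and 1.25, also above every control, with a change of 0.36 ± 0.09 (adjusted p = 0.076, and 0.034 with slide as a block). The group means ran from 0.77 (NRCWE-044 at 18 µg) over 0.94 (control), 1.10 (NRCWE-045 at 18 µg) and 1.25 (NRCWE-043 at 18 µg) to 1.29, 1.30 and 1.37 for the 54 µg groups of NRCWE-043, NRCWE-045 and NRCWE-044. The 4 highest means lay within the SDs of their neighbours, which were 0.12 to 0.17. The call for NRCWE-043 at 18 µg was lost in 7 of the 10 fits that left out 1 array (controls 2, 15, 29 and 30, and NRCWE-043 replicates 5, 10 and 26), in which the change stayed between 0.26 and 0.33. It was kept in 8 of 18 other alternatives, among them both slide blocks, and ended with processed signals (0.21, adjusted p = 0.26), scale normalization (0.28, adjusted p = 0.083) and array weights (0.26, adjusted p = 0.095), among others.

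Tap2 encodes one subunit of the peptide transporter and rose with NRCWE-043. The controls read -0.07, 0.70, 0.06, 0.11 and -0.16, with the 0.70 on replicate 7. The NRCWE-043 arrays read 0.14, 0.46, 0.44, 0.71 and 0.81 at 18 µg and 0.85, 0.61, 0.98, 0.75 and 1.27 at 54 µg. All 10 were above the 4 other controls, and control replicate 7 lay among them. The rise at 54 µg was 0.76 ± 0.17 (limma adjusted p = 0.0027; 1.70-fold), and the change at 18 µg was 0.38 ± 0.17 (adjusted p = 0.20). Without control replicate 7 the values were 0.91 (adjusted p = 2.7e-04) and 0.53 (adjusted p = 0.042). Within the 2 slides that held both groups, the difference at 54 µg was 0.54 and 0.80.
Low H2-Q4 signal marked the 10 NRCWE-043 arrays and control replicate 7, which the Tap2 signal did not separate from all others. Tap2 was at 0.14 to 1.27 on the NRCWE-043 arrays and at -0.83 to 0.46 on those of NRCWE-044 and NRCWE-045. H2-Q4, a nonclassical class I heavy chain gene, was at -0.41 to 0.66 on the 10 NRCWE-043 arrays, at 0.64 on control replicate 7 and at 1.90 or above on the other 4 controls and all 20 arrays of NRCWE-044 and NRCWE-045. It fell by 2.06 and 2.31 on the log2 scale at the 2 doses of NRCWE-043 (adjusted p = 2.5e-04 and 3.2e-05), and by 2.49 and 2.74 without control replicate 7 (adjusted p = 5.6e-08 and 6.8e-09). Its part in the Tap2 result was not tested.

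**Figure D3:**
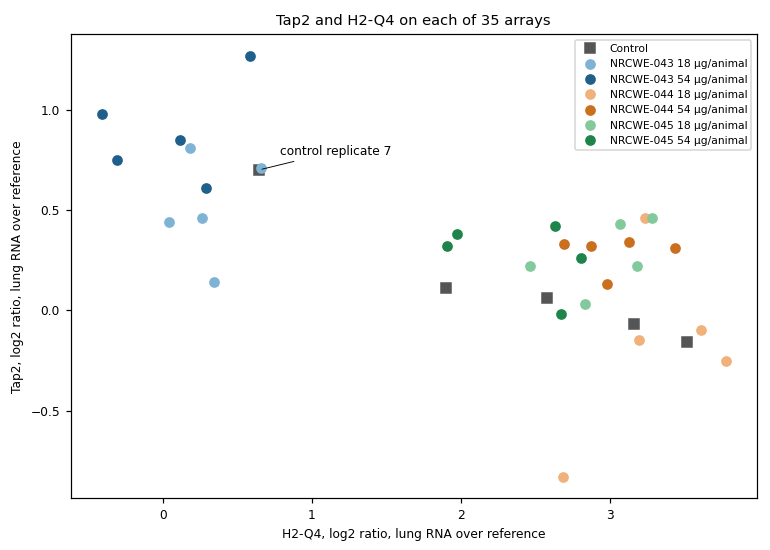
Log2 ratio to reference of Tap2 (vertical axis) against that of H2-Q4 (horizontal axis), 1 point per array for all 35 arrays, coloured by group with controls as squares. The 10 NRCWE-043 arrays and control replicate 7 sit at H2-Q4 values of 0.66 or below, and the other 24 arrays at 1.90 or above.

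Tap1, the partner subunit of the transporter, did not pass the test against control. Its controls read 0.05, -0.12, 0.24, -0.34 and -0.60, and the NRCWE-043 arrays at 54 µg -0.12, 0.19, 0.55, 0.73 and 0.87, so that the groups overlapped. The change was 0.60 ± 0.20 (adjusted p = 0.054), and 0.43 ± 0.20 for NRCWE-044 at 54 µg (adjusted p = 0.24). Fits that called the former included slide as a random block (0.54, adjusted p = 0.047) and those without NRCWE-043 replicate 3 (0.74, adjusted p = 0.020) or control replicate 15 (0.70, adjusted p = 0.038). Besides leaving out 1 array, 13 of 16 alternatives left it uncalled. For NRCWE-045 the Tap1 change was 0.15 ± 0.20 at both doses.

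Among the immunoproteasome subunits, Psmb8, the chymotrypsin-like catalytic subunit, rose with NRCWE-044 at 54 µg. Controls read 0.33, 0.65, 0.58, 0.66 and 0.46, and these arrays 1.09, 1.16, 0.99, 0.84 and 1.42, above every control. The rise was 0.57 ± 0.14 (adjusted p = 0.013; 1.48-fold), and it was 0.48 (adjusted p = 0.065) without NRCWE-044 replicate 34. With 54 µg of NRCWE-043 the arrays read 0.79, 0.86, 0.84, 1.12 and 1.17 and with NRCWE-045 0.95, 1.20, 0.90, 1.15 and 0.88, again above every control. Those changes were 0.42 ± 0.14 (adjusted p = 0.054) and 0.48 ± 0.14 (adjusted p = 0.14). Fits that called the former included those without control replicate 7 (0.45, adjusted p = 0.0498) and with slide as a random block (0.41, adjusted p = 0.045). Besides leaving out 1 array, 9 of 16 alternatives left it uncalled, and the lowest limma adjusted p was 0.014.
Of the 10 members, 2 lay wholly above control in each of the 3 groups at 54 µg (Tapbp and Psmb8), as did 4.49%, 3.78% and 1.67% of all features for NRCWE-043, NRCWE-044 and NRCWE-045. Psmb10, the inducible trypsin-like subunit, changed by 0.39 ± 0.15, 0.46 ± 0.15 and 0.49 ± 0.15 at 54 µg of the 3 materials (adjusted p = 0.092, 0.054 and 0.14). Control replicates 29 (1.67) and 30 (0.80) were the extremes of its control group, and without replicate 29 the changes were called for each of the 3 materials (0.49, 0.57 and 0.60). That of NRCWE-044 was also called without its replicate 31 (0.51, adjusted p = 0.038) and with slide as a fixed or random block (0.42 and 0.43, adjusted p = 0.038 and 0.031), among others. Besides leaving out 1 array, 12 of 16 alternatives left the NRCWE-043 change uncalled and 10 of 16 that of NRCWE-044. Psmb9, the third inducible subunit, lay between -0.41 and 0.29 in the 6 comparisons, with SEs of 0.22. Without the low replicates 5, 6, 10 and 11, its change with NRCWE-043 at 18 µg was 0.13 in place of -0.25.

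Nlrc5, the transactivator, was not called against control. Its controls read 0.57, 0.74, 0.71, 1.17 and 0.07, the NRCWE-044 arrays at 18 µg -0.03, -0.18, 0.47, 0.00 and 0.33, and those at 54 µg 1.31, 1.20, 0.94, 1.23 and 1.26. The changes were -0.53 ± 0.23 at 18 µg and 0.53 ± 0.23 at 54 µg (adjusted p = 0.43 and 0.18), so that control lay between the doses. Its second, dimmer probe was above background on 16 of 35 arrays and did not place control between the doses. It gave 0.06 ± 0.12 at 18 µg and 0.20 ± 0.12 at 54 µg of NRCWE-044 (limma adjusted p = 0.87 and 0.41 over probes).

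Among the 3 dose steps, that from 18 to 54 µg of NRCWE-044 had the largest median change of the class I genes. Tests of the differences between steps called 0 of these genes, as given below. Over the NRCWE-044 step, 5 of the 10 rose and 0 fell, where 6.48% of all features were called and 4.82% were called as higher. All 10 estimates were positive, with a median of 0.57 against 0.028 over all features. Nlrc5 rose by 1.07 ± 0.23 (limma adjusted p = 0.0030), or 2.09-fold, with all arrays at 54 µg above all at 18 µg. Tapbp, at 0.80, 0.81, 0.51, 0.72 and 1.03 on the arrays at 18 µg, rose by 0.59 ± 0.09 (adjusted p = 1.2e-04), likewise without overlap. Psmb8, at 0.14, 0.19, 0.35, 0.30 and 0.71 at 18 µg, rose by 0.76 ± 0.14 (adjusted p = 8.0e-04), again without overlap. These 3 of 10 without overlap compare with 3.69% of all features.
Tap1 read -0.72, -0.79, -0.13, -0.44 and -0.55 at 18 µg and 0.26, 0.37, 0.15, -0.18 and 0.75 at 54 µg, a rise of 0.80 ± 0.20 (adjusted p = 0.013) in which the lowest array at 54 µg lay below the highest at 18 µg. Psmb10 rose by 0.54 ± 0.15 (adjusted p = 0.020). The 5 genes not called changed by 0.68 (Psmb9, adjusted p = 0.063), 0.47 (H2-K1), 0.46 (Tap2), 0.37 (H2-D1) and 0.33 (B2m). Within each of the 3 slides that held both doses, all 10 genes were higher at 54 µg, and 7 were called with slide as a fixed block, with H2-K1 (0.50, adjusted p = 0.043) and Psmb9 (0.58, adjusted p = 0.049) added. Without replicate 34 at 54 µg, 3 genes were called (Tap1 and Psmb10 lost), and without replicate 23 at 18 µg, 8 were. Psmb10 was also lost without replicate 6 at 18 µg (0.40, adjusted p = 0.082), without replicates 5, 6, 10 and 11 (0.33, adjusted p = 0.19), with Cy5 alone (0.46, adjusted p = 0.053) and with only the groups compared in the fit (adjusted p = 0.12). Tap1 was likewise lost without those 4 arrays (0.64, adjusted p = 0.10).
The second Nlrc5 probe did not show the step of the first, with 0.14 ± 0.12 (adjusted p = 0.58 over probes). With median centring in place of loess, 0 of the 10 were called in this or any other comparison, while the changes of the 5 genes stayed between 0.72 and 0.99.

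**Figure D4:**
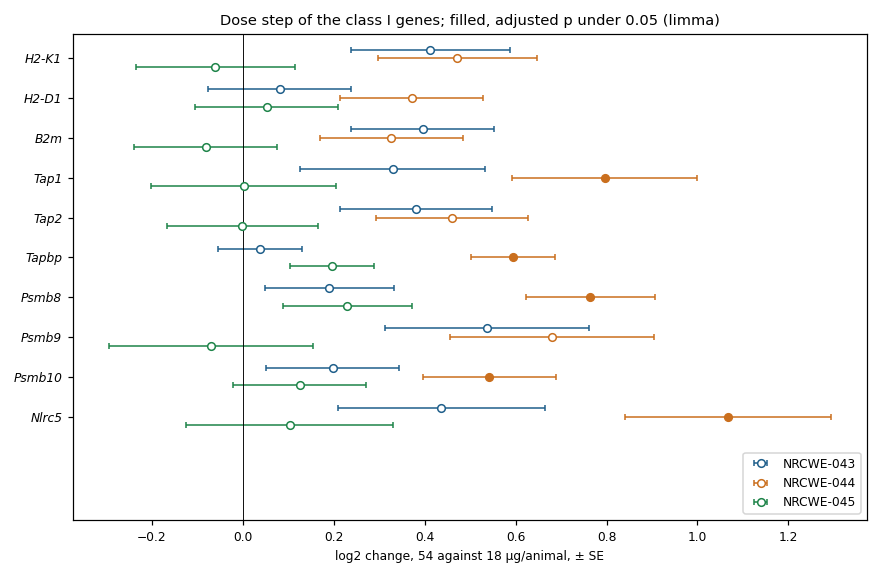
Log2 change from 18 to 54 µg/animal ± SE (horizontal axis) for each class I gene (vertical axis) and material; filled points have an adjusted p under 0.05 in limma. For NRCWE-044 the points lie between 0.33 and 1.07 and 5 are filled, and for NRCWE-045 they lie between -0.08 and 0.23.

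The other materials gave no called dose step in these genes. With NRCWE-043 all 10 estimates were positive, with a median of 0.36, but 0 were called, at 1.17% of all features. Its largest steps were in Psmb9 (0.54 ± 0.22), Nlrc5 (0.44 ± 0.23), H2-K1 (0.41 ± 0.17) and B2m (0.40 ± 0.16), of which Psmb9, H2-K1 and B2m were lower on average at 18 µg than in control. With NRCWE-045 the median step was 0.03, 6 of 10 estimates were positive, and 0 genes and 0% of all features were called. The 95% interval of its Nlrc5 step, -0.36 to 0.56, still allowed a rise of 0.56. At an unadjusted p under 0.05, limma gave 4 of the 10 for NRCWE-043 and 1 for NRCWE-045, with 3728 and 972 features.
Tests of whether the dose steps differ between materials called 0 genes and 0% of all features in each of the 3 comparisons. The NRCWE-045 step was smaller than that of NRCWE-044 for 10 of 10 genes, with a median difference of -0.50, and 6 of 10 had an unadjusted p under 0.05, with 1146 features. For the other 2 comparisons of steps, limma gave 2 and 1 of the 10 at an unadjusted p under 0.05 (NRCWE-044 and NRCWE-045 against NRCWE-043), with 824 and 908 features.

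At matched doses, 6 pairs of materials were compared, each with p-values adjusted over all features. At 18 µg, 4 of the 10 genes were lower with NRCWE-044 than with NRCWE-043, where 10.9% of all features differed and 5.47% were lower. Tapbp differed by -0.47 ± 0.09 (limma adjusted p = 7.5e-04) with no overlap of arrays, as in 3.24% of features. Tap2 differed by -0.69 ± 0.17 (adjusted p = 0.0061), Tap1 by -0.64 ± 0.20 (adjusted p = 0.037) and Psmb8 by -0.43 ± 0.14 (adjusted p = 0.047). The 4 differences were negative within each of the 4 slides that held both groups, but with slide as a fixed block Psmb8 no longer passed (-0.41, adjusted p = 0.054). Without the low replicates 5, 6, 10 and 11, only Tap2 and Tapbp were still called, and Psmb8 differed by -0.18. Leaving out any 1 of 7 arrays ended the call of Tap1 (replicates 6, 11, 21 and 23 of NRCWE-044 and 10, 20 and 33 of NRCWE-043), with differences of -0.66 to -0.53. For Psmb8 this held for replicates 6, 11, 17 and 21 of NRCWE-044 and 5, 10 and 33 of NRCWE-043, with differences of -0.43 to -0.32.
B2m was higher with NRCWE-045 than with NRCWE-043 at 18 µg, by 0.62 ± 0.16 (limma adjusted p = 0.010), and was the 1 member called, at 8.56% of all features. A count of 1 in 10 is near that share and is not a result about the members as a set. The NRCWE-045 arrays read 0.72, 0.95, 0.85, 0.88 and 1.66, above all 5 NRCWE-043 arrays, as in 5.28% of features. Without replicate 27, at 1.66, the difference was 0.45 (adjusted p = 0.059). The heavy chains H2-K1 and H2-D1 differed by 0.46 ± 0.17 and 0.46 ± 0.16 (adjusted p = 0.098 and 0.063). With slide as a fixed block H2-D1 was called too (0.51, adjusted p = 0.0018), and it was higher with NRCWE-045 in each of the 4 slides that held both groups. Between NRCWE-045 and NRCWE-044 at 18 µg, all 10 estimates were positive with a median of 0.45, but 0 were called, at 0.454% of all features. The lowest adjusted p there was 0.083, for Nlrc5 (0.85 ± 0.23), Tapbp was called with slide as a fixed block (0.35, adjusted p = 0.036), and 8 of 10 had an unadjusted p under 0.05, with 3350 features.
At 54 µg the materials differed in Tap2 alone among the 10 genes. It was lower than with NRCWE-043 by -0.61 ± 0.17 with NRCWE-044 (adjusted p = 0.017; 7.64% of features called) and by -0.62 ± 0.17 with NRCWE-045 (adjusted p = 0.019; 5.4%). These counts of 1 in 10 are likewise near the shares over all features. In both pairs all 5 arrays lay below all 5 NRCWE-043 arrays, as for 3.29% and 2.28% of features. Without NRCWE-043 replicate 22 the differences were -0.51 and -0.53 (adjusted p = 0.074 and 0.080). The call also ended without NRCWE-044 replicate 31 for the former (-0.57, adjusted p = 0.0501) and without NRCWE-045 replicate 28 for the latter (-0.55, adjusted p = 0.071), which was also lost with slide as a fixed block (-0.55, adjusted p = 0.070). H2-D1 was higher on average with NRCWE-044 and NRCWE-045 than with NRCWE-043, by 0.48 and 0.43, without passing the test (adjusted p = 0.055 and 0.12). Between NRCWE-045 and NRCWE-044, 0 genes and 0% of features were called. The 95% intervals of that difference were -0.26 to 0.11 for Tapbp, -0.37 to 0.20 for Psmb8 and -0.57 to 0.35 for Nlrc5. None of the 10 had an unadjusted p under 0.05 there, with 1547 features.

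Each immunoproteasome subunit replaces a constitutive one, and the difference within each pair was compared on the same arrays. In controls Psmb8 minus Psmb5 was 0.30 ± 0.17 (SD, n = 5), Psmb9 minus Psmb6 0.92 ± 0.17 and Psmb10 minus Psmb7 2.10 ± 0.54. With NRCWE-044 at 54 µg, Psmb8 was 0.57 and Psmb5 0.32 above control, so that the pair differed from control by 0.25 (two-sided exact permutation p = 0.12). With NRCWE-045 at 54 µg the same pair differed by 0.24, with 5 of 5 arrays above the control mean (exact permutation p = 0.048), and with NRCWE-044 at 18 µg Psmb9 minus Psmb6 differed by -0.36, with 0 of 5 above (exact permutation p = 0.048). After adjustment over the 18 exact permutation tests both had an exact permutation adjusted p = 0.38, and 0 of 18 passed. The smallest exact permutation p that 5 against 5 arrays can give is 0.0079. A test that reached this smallest p alone could not have passed after adjustment over 18. The count of 0 therefore cannot decide whether the subunits of a pair moved together.

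**Figure D5:**
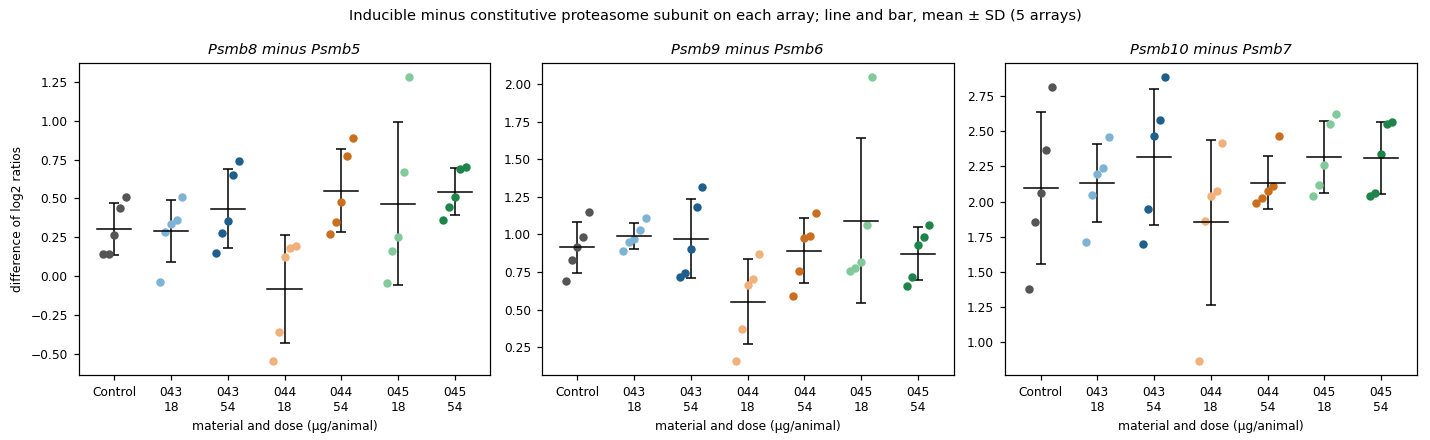
Difference of log2 ratios (vertical axis) between each inducible proteasome subunit and the constitutive subunit it replaces, by material and dose in µg/animal (horizontal axis); points are the 5 arrays of a group, lines and bars the mean ± SD. Psmb8 minus Psmb5 averages 0.30 in control, -0.08 at 18 µg and 0.55 at 54 µg of NRCWE-044.

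The rest of the pathway was read from 6 lists of genes. The counts stand beside 5.4% (NRCWE-043) and 3.94% (NRCWE-044) of all features called higher at 54 µg, and 4.82% over the NRCWE-044 dose step. Genes that fell stand beside the share called in either direction, 4.25% at 18 µg and 10.3% at 54 µg of NRCWE-043. Of 8 genes of peptide trimming and loading, 5 rose with NRCWE-043 and 3 with NRCWE-044 at 54 µg, and 0 fell. Their median changes were 0.49 and 0.42. The chaperone calreticulin (Calr), which holds the empty class I molecule, rose by 0.83 ± 0.16 (over 4 arrays with a value) and 1.13 ± 0.15 (limma adjusted p = 6.7e-04 and 3.3e-05). Hspa5, an endoplasmic reticulum chaperone that is not specific to class I, rose by 1.03 ± 0.22 and 1.02 ± 0.22. Erap1, the aminopeptidase that trims peptides there, rose by 0.60 ± 0.12 with NRCWE-043 (adjusted p = 0.0015). With NRCWE-044 it was not called, at 0.68 ± 0.17 (SD, n = 5) against 0.48 ± 0.20 in control. The 3 genes called with NRCWE-044 were Calr, Hspa5 and Uggt1, and Canx was among the 5 called with NRCWE-043.
Of 5 proteasome activator and assembly genes, 2 rose at 54 µg of either material: Psme1 by 0.47 ± 0.13 and 0.44 ± 0.13, and Psme2 by 0.61 ± 0.16 and 0.62 ± 0.16 (NRCWE-043, then NRCWE-044). Both encode the interferon-inducible PA28 activator. Of 14 constitutive 20S subunits, 1 rose with each: Psma1 by 0.32 ± 0.10 with NRCWE-043 and Psmb4 by 0.29 ± 0.08 with NRCWE-044. All 14 estimates were positive at 54 µg of both, with medians of 0.20 and 0.30. A count of 1 in 14 is near the share over all features and is not a result about these subunits.
Among 21 regulators of class I genes, 3 rose and 1 fell with NRCWE-043 at 54 µg, and 5 rose with NRCWE-044. Socs1, a feedback inhibitor of interferon signalling, rose by 1.21 ± 0.18 and 1.18 ± 0.18 (adjusted p = 7.1e-05 and 1.5e-04). Of the interferon-activated factors, Stat2 and Irf9 rose with NRCWE-044 by 0.67 ± 0.14 and 0.50 ± 0.14. Irf1 averaged 1.67 ± 0.21 (SD, n = 5) in control and 1.91 ± 0.26 and 1.86 ± 0.11 at 54 µg of NRCWE-043 and NRCWE-044, and did not pass the test. Nfya, a subunit of the factor that binds the Y box, fell with NRCWE-043 by 1.17 ± 0.27 at 18 µg and by 0.82 ± 0.27 at 54 µg (adjusted p = 0.0095 and 0.048). A fall of 1 in 21 is near or below the share called in either direction at these doses. It is not a result about the regulators as a set.
Of 12 other class I and class I-like heavy chain genes tested, H2-M3, which presents formylated peptides, rose by 0.54 ± 0.14 with NRCWE-043 at 54 µg, H2-Q4 fell at both doses as given above, and 0 were called with NRCWE-044 or NRCWE-045. In the class II pathway, which loads peptides from endocytosed proteins, 3 of 12 genes rose with NRCWE-044 at 54 µg: Ifi30 by 0.79 ± 0.22, H2-DMb1 by 0.64 ± 0.18 and Cd74 by 0.53 ± 0.15. Over the NRCWE-044 dose step 6 of the 12 rose, and all 12 estimates were positive with a median of 0.59. With NRCWE-045, 0 genes of the 6 lists were called at either dose.

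Markers of other cell types moved with some of these groups, and their counts stand beside the same shares. For markers that fell this is the share called in either direction, 10.3% at 54 µg and 4.25% at 18 µg of NRCWE-043. A fall of 1 marker is not a result about its list. Of 13 T and natural killer cell markers and 5 B cell markers, 0 were called against control in any group, and 1 rose over the NRCWE-044 dose step. T and natural killer markers averaged 0.52 to 0.93 on the NRCWE-044 arrays at 18 µg and 0.79 to 1.59 on controls, and 0.98 to 1.32 at 54 µg of NRCWE-044. The B cell list averaged -0.32 to -0.11 on the NRCWE-044 arrays at 18 µg, -0.19 to 1.13 at 54 µg and -0.37 to 1.25 on controls. Of 7 monocyte and macrophage markers, 2 rose with NRCWE-044 at 54 µg (Ccr2 by 1.03 and Mrc1 by 0.87). With NRCWE-043 at 54 µg 1 rose (Ccr2 by 1.16) and 1 fell (Itgam, a change of -1.34). The mean level of this list ran from 3.53 to 3.97 on the NRCWE-044 arrays at 54 µg and from 2.96 to 3.51 on controls, without overlap.
Of 5 neutrophil markers, 3 rose and 1 fell with NRCWE-043 at 54 µg, and 1 rose with NRCWE-044. The neutrophil list averaged 3.06 to 3.42 and 2.82 to 3.68 on those arrays, against 1.58 to 3.02 on controls. Of 4 dendritic cell markers tested, Batf3, a factor of dendritic cells that present on class I, rose by 0.82 ± 0.22 and 1.46 ± 0.22. The changes of the other markers of this list are not given here. A rise of Batf3 is not a result about the list. The dendritic list, whose averages include Batf3, averaged 0.28 to 0.86 at 18 µg and 0.83 to 1.52 at 54 µg of NRCWE-044, and 0.56 to 0.89 on controls. Lung epithelium markers averaged 4.95 ± 0.29 (SD, n = 5) with NRCWE-043 at 54 µg and 5.36 ± 0.20 (SD, n = 5) on controls, and 1 of 8 fell (Scgb1a1, a change of -0.83). At 18 µg of NRCWE-043 Itgam and Csf3r fell (changes of -1.27 and -0.57). Of the listed markers Klrk1, Cd68, Ly6c2, Ly6g, Xcr1 and Itgae gave no tested probe. The part of these cells in the class I changes was not tested. Heart muscle markers ranged from 0.08 to 2.89 and adipose markers from 0.46 to 5.27 across arrays, and 0 of either list were called against control.

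The members did not all vary together. Over the 35 arrays, with each group's mean removed, the 45 pairs of members had a median Pearson r of 0.51, from -0.29 (Tap1 and Tapbp) to 0.88 (H2-K1 and B2m). H2-D1 and B2m stood at 0.78, and Psmb9 and Tap1, whose shared promoter is printed above, at 0.64. Tapbp, the member called most often, had the lowest median r with the other 9, at 0.11. These points share arrays, slides and the reference channel.
Relations with Nlrc5 were computed for the other 9 genes on the same 35 residuals. Psmb8 had r = 0.77 and Spearman's rho = 0.69 (permutation p = 1e-05, the smallest that 100000 permutations can give, and 2e-05), and r = 0.69 without the 2 most extreme arrays. Tap1 had r = 0.62 and rho = 0.62 (permutation p = 5e-05 and 1.6e-04), and r = 0.50 without those arrays. H2-D1 had r = 0.33 and Tapbp r = 0.04 (permutation p = 0.056 and 0.83). After Benjamini-Hochberg adjustment over the 9 relations, 7 had an adjusted p under 0.05 by Pearson r, but only 3 without replicate 27 of NRCWE-045. Of those 7, H2-K1 (rho = 0.34, permutation adjusted p = 0.065) and B2m (rho = 0.29, permutation adjusted p = 0.13) did not pass by Spearman's rho. Within the 3 slides that hold 6 or 8 arrays, Psmb8 had r = 0.65, -0.15 and 0.90, and Tap1 0.84, 0.29 and 0.88, so that the relation did not hold in every slide.
Among 15610 other genes, those whose values followed the mean of the 10 members most closely over the 35 arrays were Ifi47 (r = 0.91), H2-DMb1 (0.90), H2-Q8 (0.90), Iigp1 (0.89) and Irgm2 (0.88).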

How the data were processed

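Lung RNA was measured on 35 2-colour Agilent arrays, extracted with Feature Extraction 11.0.1.1 per the file headers. The scanner files hold spot intensity values as deposited. The series matrix holds values that the authors deposited, read as log2 ratios from their range; how they were normalized is not stated there, and they correlated at 0.993 to 0.999 with the ratios below. Median intensities were background-corrected (normexp, offset 50) and loess-normalized within arrays in limma 3.58.1 (R 4.3.3), leaving out control and marked spots. No dye swap was made, so a dye effect stays in each ratio and cancels between arrays. Of 55681 probes, 27235 had a symbol through RefSeq accessions (GRCm38.p6). Tested were the 34324 probes whose Cy5 signal stood well above background on 3 or more of the 5 arrays in any group, with the brightest taken for each gene. One limma model over all 35 arrays gave 18 comparisons, with Benjamini-Hochberg adjustment over 25533 features and a threshold of 0.05. Proteasome pairs were compared with exact permutation tests over 252 splits, and correlations with 100000 permutations. The code was tested on simulated data. Members, pathway lists and markers were chosen with earlier results of these data known. Named by rule were all 10 members in each comparison with control, and in other comparisons the called members or the one with the lowest p. From each pathway list came up to 4 called genes with the largest change against control, a few whatever their result (such as Irf1, Psme1, Calr and H2-Q4), and the 5 genes most like the members' mean. Further members, called markers and class I-like genes were named after their values were seen. Precision is limited by the 5 arrays per group. Alternatives were background correction, processed signals, deposited values, normalization, Cy5 alone, filters, probe summary, marked spots, slide, arrays in the fit, variance model, array weights and arrays left out.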

Additional observations from a re-analysis of the deposited data

Results flagged for a closer look

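Of 70 sets of 5 arrays (10 genes in 7 groups), 7 held 1 array whose gap to its neighbour exceeded the critical share of the range for 5 values (Dixon). Chance gives about 1 in 20 for a set on its own. The 70 sets share arrays and the members varied together, so the count of 7 was not tested against chance. Replicate 27 of NRCWE-045 at 18 µg accounted for 3 of the 7: H2-K1 at 3.23 against 2.31 to 2.48 on the other 4 arrays, B2m at 1.66 against 0.72 to 0.95, and Nlrc5 at 2.13 against 0.41 to 0.86. Replicate 32 of NRCWE-045 at 54 µg had H2-K1 at 2.73 against 2.40 to 2.47, and replicate 8 of that group had Psmb9 at 0.89 against 1.19 to 1.30. Replicate 22 of NRCWE-043 at 54 µg had H2-D1 at 3.07 against 2.43 to 2.54. Replicate 31 of NRCWE-044 at 54 µg had Tap2 at 0.13 against 0.31 to 0.34.

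Materials differed at the same dose in 7 results by the test of the difference itself (limma). At 18 µg NRCWE-044 minus NRCWE-043 was -0.64 for Tap1, -0.69 for Tap2, -0.47 for Tapbp and -0.43 for Psmb8, and NRCWE-045 minus NRCWE-043 was 0.62 for B2m. At 54 µg Tap2 was -0.61 for NRCWE-044 and -0.62 for NRCWE-045, each minus NRCWE-043. The calls of B2m, and of Tap2 at 54 µg, came at counts near the share of all features called, as given above.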

How the results depend on the processing

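The number of the 10 genes called against control kept its size under each alternative tried for NRCWE-044 and NRCWE-045 at 18 µg, and the tests of dose-step differences kept theirs at 0. Median centring called 0 genes in the 8 comparisons with calls, and moved the median of all features by 0.12 for NRCWE-043 at 54 µg; its called features for NRCWE-044 at 54 µg were 95.5% higher, against 65.7% with loess and 52.3% with Cy5 alone. For NRCWE-043 at 18 µg, 0 genes were called with Cy5 alone, no filter, only the groups compared, trended variance or without replicates 5, 6, 10 and 11, and 2 with slide as a fixed or random block (Tapbp higher, and H2-D1 or B2m lower) or without controls 7 and 29. For NRCWE-043 at 54 µg the number was 4 with processed signals, a filter of 5 of 5 arrays, slide as a random block, array weights or without controls 7 and 29, 5 with scale normalization and 1 with Cy5 alone. For NRCWE-044 at 54 µg it was 0 with Cy5 alone, and Psmb10 was added with processed signals, a filter of 5 of 5 arrays, either slide block, array weights or without controls 7 and 29 (0.42 to 0.62). For NRCWE-045 at 54 µg it was 1 with either slide block and 2 with array weights. The dose step called 1 gene for NRCWE-043 and 8 for NRCWE-044 with scale normalization, and 3 for NRCWE-044 without replicates 5, 6, 10 and 11. NRCWE-044 against NRCWE-043 at 18 µg called 2 with processed signals, only the groups compared, or without either set of 4 arrays (5, 6, 10 and 11, or 5, 6, 10 and 23, both chosen after seeing the data), and at 54 µg 2 with only the groups compared, slide as a random block or array weights. NRCWE-045 against NRCWE-043 at 18 µg called 3 with scale normalization, 0 with Cy5 alone and 2 with either slide block, and at 54 µg 0 with slide as a fixed block. NRCWE-045 against NRCWE-044 at 18 µg called 2 with Cy5 alone and 1 with scale normalization, either slide block or array weights. Leaving out 1 array gave 0 to 2 (NRCWE-043 at 18 µg), 2 to 3 (NRCWE-043 at 54 µg), 1 to 3 (NRCWE-044 at 54 µg), 0 to 1 (NRCWE-045 at 54 µg), 3 to 8 (NRCWE-044 dose step), 2 to 4 (NRCWE-044 against NRCWE-043 at 18 µg), 0 to 2 (the same at 54 µg, and NRCWE-045 against NRCWE-043 at 18 µg), 0 to 1 (NRCWE-045 against NRCWE-043 at 54 µg) and 3 to 8 Nlrc5 relations. The cause of these moves was not tested.

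Directions turned only for values not called. For NRCWE-043 at 18 µg, Psmb9 was 0.025 with processed signals, 0.0054 with array weights and 0.13 without either set of 4 arrays, and Nlrc5 was -0.019, -0.043 and -8.1e-04, and -0.050 and -0.079 without replicates 10 and 30. At 54 µg of NRCWE-043, H2-D1 and B2m were 0.20 and 0.41 with median centring, and B2m 0.012 with Cy5 alone. For NRCWE-044 at 18 µg, Psmb10 was 0.074 without controls 7 and 29, 0.14 without replicates 5, 6, 10 and 11, 0.064 and 0.030 without replicates 6 and 29 (-0.20 to 0.064 over arrays left out in turn), and H2-D1 and B2m were 0.075 and 0.11 without those 4 arrays. H2-Q4 was -0.063 for NRCWE-044 at 54 µg and B2m -6.7e-04 for NRCWE-045 at 54 µg without controls 7 and 29. For NRCWE-045, B2m and Tap1 at 18 µg were -0.014 and -0.0097 without replicate 27 (up to 0.22 and 0.25 without another array), B2m at 54 µg was -0.0034 without replicate 32, and Tap1 at 54 µg -0.015 with Cy5 alone. The Nlrc5 and Tapbp correlation was -0.11 with scale normalization, -0.020 without controls 7 and 29, -0.077 and -0.0066 without the sets of 4, and -0.073 to 0.13 without 1 array. No paired analysis was possible because no replicate number is shared between groups. Precision is limited by 5 arrays per group, and the members' probes were above background on every array apart from the dimmer Nlrc5 probe.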
